A study of Homo sapiens with 18 samples.

Results

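The zinc transporter genes measured here were 10 genes taken by their symbols: 5 genes of the SLC30 family (SLC30A1, SLC30A5, SLC30A6, SLC30A7 and SLC30A9), 4 genes of the SLC39 family (SLC39A6, SLC39A7, SLC39A8 and SLC39A10) and the zinc sensor gene MTF1. The count table held 43735 rows of genes, and 9 of the 10 members were among the 14281 genes that passed the filter on low counts. Each of these 9 had at least 50 counts in every library, so none passed through a single group, and the gene that did not pass was SLC39A7.

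RNA from MM1R and MM1S, 2 established human multiple myeloma lines of the same origin, was sequenced. MM1S is sensitive to glucocorticoids and MM1R is resistant to them. Each line was left untreated, treated for 3 h with 5 µM RSL3, an inhibitor of the lipid peroxide-reducing enzyme GPX4 that induces ferroptosis, or given 2 µM of the ferroptosis inhibitor ferrostatin-1 (Fer-1) for 2 h before the same RSL3 treatment. Each of the 6 groups held 3 libraries, which were separate passages of the line (passages 4, 6 and 7 of MM1R and passages 16, 22 and 23 of MM1S, numbered below as replicates 1, 2 and 3). No group received Fer-1 alone, and all values come from these 2 lines at a single time, so p-values measure the spread between passages of the same cultures. Whole cultures were sequenced, so a change in every cell and a change in some of the cells, or in the number of cells and in the RNA of each, cannot be told apart.

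Most SLC30 proteins, also called ZnT, move zinc out of the cytosol, either out of the cell or into organelles. SLC39 proteins, also called ZIP, move zinc in the opposite direction, into the cytosol. SLC30A9 differs from most of its family in that it exports zinc from mitochondria. MTF1 is a transcription factor that binds zinc when cytosolic zinc is high and then activates the metallothionein genes, which encode small zinc-binding proteins, and SLC30A1 through metal response elements in their promoters. Plasma cells, the normal counterpart of myeloma cells, secrete large amounts of protein, and several enzymes of the secretory pathway need zinc delivered by SLC30 transporters.

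Library totals lay between 17635438 and 19368343 counts, with a median of 18564719. All 8 plasma cell markers were expressed in every library, with levels, in counts relative to library size (CPM), between 41.0 CPM for the lowest value of CD38 and 1649 CPM for the highest of XBP1. The B cell markers MS4A1 and PAX5 did not exceed 0.455 CPM in any library, while CIITA lay between 19.4 and 45.1 CPM. Among 12 markers of T cells, myeloid, erythroid, epithelial and fibroblast cells, the highest value of any library was 19.5 CPM (COL1A1), and 8 of the 12 did not pass the filter. The summed CPM of the plasma cell markers was 5809 to 6247 in untreated MM1R, 5097 to 5808 with RSL3 and 5221 to 5411 with Fer-1 + RSL3, and in MM1S it was 4990 to 5581, 5210 to 5489 and 4385 to 5181. In the average of RSL3 against untreated, the plasma cell markers SDC1 and TNFRSF17 had log2 fold changes of -0.45 and -0.53 (adjusted p = 0.0113 and 0.0155). In the same average CD38 was higher by 0.54 (adjusted p = 0.0408) and the fibroblast gene COL1A1 by 1.94 (adjusted p = 0.0398). COL1A1 ranged from 0.746 to 19.5 CPM within the RSL3 group of MM1S, and the highest value was that of replicate 1. The summed markers of other cell types were at 35.5 CPM in that library, against 13.0 and 12.8 CPM in replicates 2 and 3 of its group. In the lines alone its log2 fold changes were 0.60 in MM1R and 3.285 in MM1S, neither called (adjusted p = 0.774 and 0.0513). For Fer-1 + RSL3 against untreated, SDC1, TNFRSF17 and CD38 were called in MM1R and TNFRSF17 in MM1S, in the same directions. The part of these markers in the results below was not tested. NR3C1, which encodes the glucocorticoid receptor, was at 13.8 to 14.9 CPM in untreated MM1R and at 89.9 to 152 CPM in untreated MM1S (log2 fold change -2.97, adjusted p = 0.00193). Of the treated MM1R libraries, replicate 2 of Fer-1 + RSL3 stood apart with 50.2 CPM of NR3C1, against 16.9 and 15.3 CPM in the other libraries of its group. Replicate 1 of RSL3 in MM1S, with 392 CPM of NR3C1, stood apart from the 97.6 and 102 CPM of its group. Over all genes tested it also differed from its group by more than any other library did. Several results below are also given without one of these libraries. Levels below are CPM after scaling by trimmed mean of M values (TMM), which compare libraries for 1 gene, and CPM per kilobase of exon where genes are compared with each other. Adjusted p-values come from the quasi-likelihood test of edgeR and were adjusted by the Benjamini-Hochberg method over all 14281 genes, and a gene was called where this value was below 0.05. The fit had no term for the passage, except where a replicate block is named.

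In untreated cells, transcripts of the importer gene SLC39A8 were the most abundant of the members per length, and those of SLC30A7 the least. SLC39A8, a plasma membrane and lysosomal importer of zinc that also carries manganese, was at 71.7 ± 2.95 CPM per kilobase (SD, n = 3) in MM1R and 68.7 ± 2.65 in MM1S. SLC30A1, the plasma membrane zinc exporter, followed with 47.2 ± 9.02 CPM per kilobase in MM1R and 47.8 ± 2.73 in MM1S. SLC39A6, a plasma membrane importer, was at 42.0 ± 3.12 and 45.4 ± 4.88 CPM per kilobase. The untreated libraries of SLC30A1 and SLC39A6 overlapped in both lines, so the order of these neighbours was not resolved, whereas SLC39A8 lay above both in every untreated library.

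Next came SLC30A5, whose protein pairs with that of SLC30A6 to load zinc into enzymes of the early secretory pathway, at 26.6 ± 1.08 CPM per kilobase in MM1R and 27.0 ± 2.56 in MM1S. SLC30A6 itself was lower, at 11.2 ± 0.239 and 11.2 ± 0.369 CPM per kilobase. By this measure the transcripts of these partners were not equally abundant in any untreated library. Each length is that of 1 annotated transcript, and the forms present in these cells were not measured. Orders between genes hold for these lengths only. SLC30A9, the zinc exporter of mitochondria, was at 12.4 ± 0.619 and 12.4 ± 0.160 CPM per kilobase, above SLC30A6 in every untreated library. SLC39A10, an importer of the plasma membrane known for its role in B lymphocyte survival, was at 6.48 ± 0.812 CPM per kilobase in MM1R and 8.59 ± 0.504 in MM1S. MTF1 was at 5.27 ± 0.363 and 5.08 ± 0.402 CPM per kilobase, a range that met that of SLC39A10 in MM1R and lay below it in MM1S. SLC30A7, a zinc transporter of the Golgi, was at 0.565 ± 0.184 and 0.704 ± 0.0690 CPM per kilobase and rested on 50 to 147 counts per library.

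**Figure D1:**
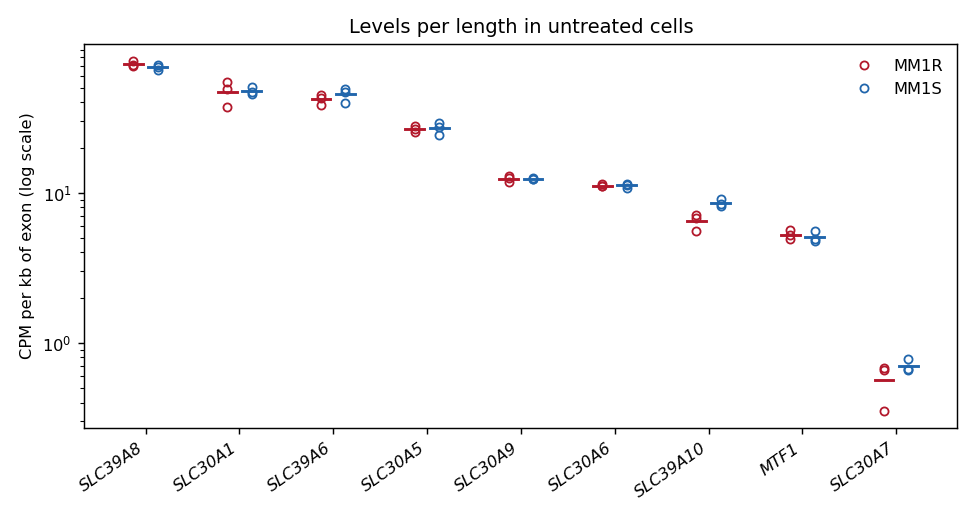
Level of each member in untreated cells, in CPM per kilobase of exon on a logarithmic axis. Open circles are the 3 libraries of each line and bars are their means. SLC39A8 is highest, with means of 71.7 in MM1R and 68.7 in MM1S, and SLC30A7 lowest, with 0.565 and 0.704.

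SLC39A7, an importer of the endoplasmic reticulum and Golgi, could not be assessed. It was listed at 0 counts in all 6 of its rows and all 18 libraries. RPS18, a ribosomal protein gene near it on chromosome 6 that every cell uses, was at 0 to 3 counts in its main row, and its own 6 rows summed to at most 20 counts in any library. The adjacent genes RING1 and HSD17B8 were also listed at 0. These neighbours were looked at after the value of SLC39A7 was seen. The 0 of SLC39A7 therefore gives no level for this gene, and it is left out of the comparisons below.

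In untreated cells, 0 of the 9 members tested differed between MM1R and MM1S, against 10.5% of all genes (1498 of 14281). At an unadjusted p under 0.05 the count of members was also 0, as it was with DESeq2. The largest difference was that of SLC39A10, which had a log2 fold change of -0.41 (SE 0.21, adjusted p = 0.249) for MM1R against MM1S. Its 3 untreated MM1R libraries, at 29.1 to 37.2 CPM, all lay below the MM1S libraries, at 42.6 to 47.8 CPM. Of 9 tested genes among the 15 other members of the 2 transporter families, SLC30A3 and SLC39A13 were called, both higher in MM1R. SLC30A3 loads zinc into synaptic vesicles and was near the limit of detection, at means of 0.971 and 0.343 CPM (log2 fold change 1.48, SE 0.348, adjusted p = 0.0121). SLC39A13, an importer of the Golgi and intracellular vesicles, had means of 26.7 and 17.1 CPM (log2 fold change 0.65, SE 0.197, adjusted p = 0.0451), a call that was lost with upper-quartile scaling. Leaving out 1 library, the SLC39A13 call was lost in 7 of 18 fits (adjusted p-values of up to 0.196) and that of SLC30A3 in 2 of 18 (up to 0.0512).

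Among the members, RSL3 lowered the transcript of 1 importer, SLC39A10, in both lines, and the transcript of the exporter SLC30A1 was more than 3 times its untreated level in 3 of 6 passages. SLC39A1, an importer outside the members, was also called lower in both lines and is described further below. The other 7 members tested had log2 fold changes of at most 0.44 in size. In MM1R, 1 of 9 members was called (SLC39A10, lower), where 3.36% of all genes were called (480 of 14281). In MM1S the count was also 1 of 9 (SLC39A10, lower), with 3.67% of all genes called (524 of 14281). When a log2 fold change over 1 in size was required as well, 0 of 9 members passed in MM1R and 1 of 9 in MM1S (SLC39A10), against 1.2% and 1.61% of all genes. At an unadjusted p under 0.05 the counts were 3 and 2 members, and DESeq2 called 2 and 1. With the passage as a replicate block, 2 of 9 members were called in MM1R (SLC39A10 and SLC30A9) and 1 of 9 in MM1S, beside 1868 and 1904 of all genes. Averaged over both lines, 3 of 9 members were called (SLC30A1 and SLC30A9 higher, SLC39A10 lower), where 15.5% of all genes were called (2215 of 14281, or 4345 with the replicate block and the same 3 members). The median log2 fold change of the 9 members in this average was 0.02, beside -0.00 for all genes. Of the 9 members, 5 had a value above 0, and the account below takes them by their roles.

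**Figure D2:**
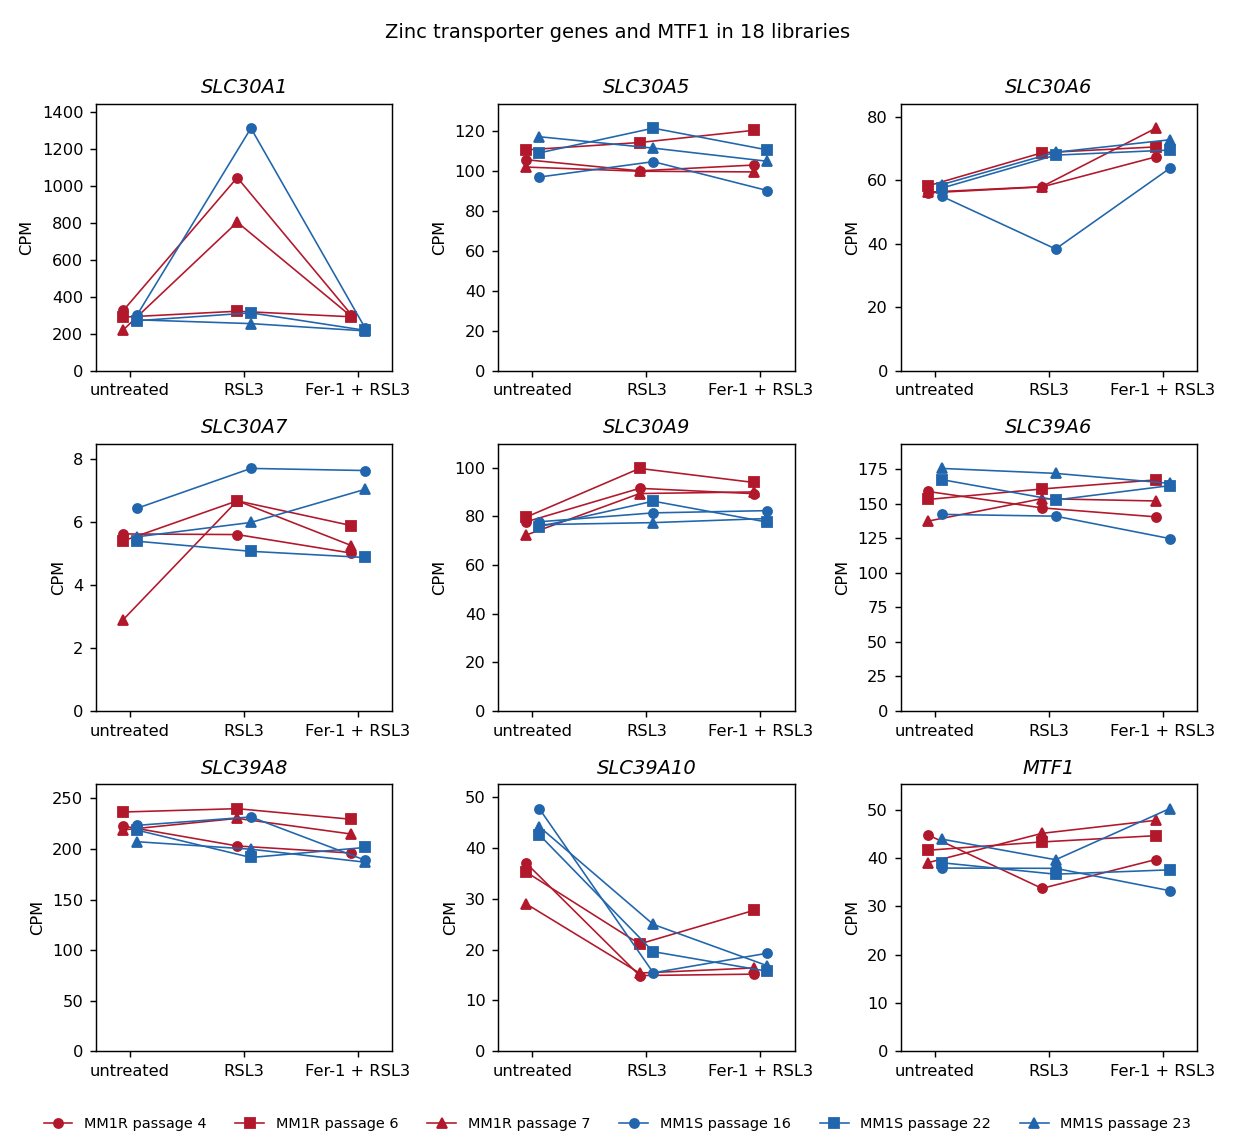
Level of 9 members in 18 libraries, in CPM on axes that start at 0. Lines join the 3 treatments of 1 passage, with MM1R in red and MM1S in blue. SLC39A10 is lower after RSL3 in 6 of 6 passages and stays low with Fer-1, whereas SLC30A1 is high in 3 RSL3 libraries (802, 1043 and 1310 CPM) and in none of the Fer-1 + RSL3 libraries.

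Of the exporters, SLC30A1 carries zinc out across the plasma membrane and is a classic target of MTF1. The gene lies on chromosome 1 (hg19 chr1:211744910-211752503, minus strand). Its promoter is shown with those of the metallothionein genes MT2A and MT1X, since transcripts of these genes were high in the same libraries. Each sequence is the 250 bases before the RefSeq start site on GRCh38.p14, written along the gene's strand: SLC30A1 is chr1:211579162-211579411 (minus strand), MT2A is chr16:56608334-56608583 (plus strand) and MT1X is chr16:56682220-56682469 (plus strand). Capitals mark matches to the core of the metal response element, searched as TGCACNC or TGCGCNC on both strands, with overlapping matches counted separately.
SLC30A1: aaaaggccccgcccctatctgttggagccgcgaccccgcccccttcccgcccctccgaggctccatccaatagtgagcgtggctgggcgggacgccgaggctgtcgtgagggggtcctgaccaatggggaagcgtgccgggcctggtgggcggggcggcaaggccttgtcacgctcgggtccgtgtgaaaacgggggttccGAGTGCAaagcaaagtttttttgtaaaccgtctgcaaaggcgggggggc
MT2A: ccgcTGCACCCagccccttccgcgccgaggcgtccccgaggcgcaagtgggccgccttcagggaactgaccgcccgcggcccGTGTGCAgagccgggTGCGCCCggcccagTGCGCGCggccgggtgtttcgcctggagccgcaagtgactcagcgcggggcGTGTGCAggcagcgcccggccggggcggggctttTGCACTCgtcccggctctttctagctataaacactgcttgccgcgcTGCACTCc
MT1X: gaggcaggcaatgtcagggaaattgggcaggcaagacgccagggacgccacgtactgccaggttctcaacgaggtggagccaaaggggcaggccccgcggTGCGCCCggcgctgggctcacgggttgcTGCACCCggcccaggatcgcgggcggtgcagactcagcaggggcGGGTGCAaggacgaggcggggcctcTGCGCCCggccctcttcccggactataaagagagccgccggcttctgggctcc
SLC30A1 held 1 match in these 250 bases, starting 49 bases before the start site and read on the opposite strand, and another lay 25 bases into the transcript. MT2A held 7 matches before its start and MT1X held 4. Of the other metallothionein genes with a listed promoter, MT1H held 8 matches and MT1B and MT4 held 3 each. MT4 was listed at 0 counts in every library, and MT1B in every untreated library. Of the other members, SLC30A6, SLC39A6 and 1 start site of SLC39A8 also held 1 match each before the start. None of these genes was called for RSL3 against untreated. SLC39A1, another importer gene, held 1 match before 1 of its start sites and was lower with RSL3. SLC30A9, which was higher with RSL3 in the average over both lines, held 0. Among 35116 RefSeq promoters of this length, 24.8% held at least 1 match and 0.37% held at least 4. A match of letters is a description of the sequence and was not tested for binding.

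In MM1R, SLC30A1 was at 325, 289 and 220 CPM in the untreated replicates 1, 2 and 3. With RSL3 it was at 1043, 321 and 802 CPM, and with Fer-1 + RSL3 at 303, 291 and 293 CPM. Replicates 1 and 3 with RSL3 therefore lay far above every other MM1R library, while replicate 2 with RSL3 was within the untreated range. In MM1S, the untreated values were 299.8, 269.8 and 275 CPM. With RSL3 they were 1310, 312 and 254 CPM, and with Fer-1 + RSL3 they were 232, 218 and 215 CPM. Only replicate 1 of RSL3 stood out in MM1S, and the untreated and RSL3 groups overlapped in that line. Within passages, RSL3 over untreated gave ratios of 3.21, 1.11 and 3.64 in MM1R and of 4.37, 1.16 and 0.925 in MM1S.

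The mean increase of SLC30A1 with RSL3 did not reach the threshold in either line, with log2 fold changes of 1.38 (SE 0.468, adjusted p = 0.119) in MM1R and 1.15 (SE 0.466, adjusted p = 0.183) in MM1S. The average over both lines was called, at a log2 fold change of 1.26 (SE 0.33, adjusted p = 0.0169), with 5 of 6 passages higher. With all libraries and the passage as a replicate block, the adjusted p-values were 0.0555 in MM1R, 0.191 in MM1S and 0.0155 in the average. Without replicate 1 of RSL3 in MM1S, the SLC30A1 value was 0.01 in MM1S (adjusted p = 0.993), 1.38 in MM1R (now called, adjusted p = 0.00491) and 0.70 in the average (adjusted p = 0.0305). Without replicate 1 of RSL3 in MM1R, the SLC30A1 average was no longer called (adjusted p = 0.0527), and without replicate 3 of RSL3 in MM1S the MM1S value was called (adjusted p = 0.046). A fit of the compared groups alone also lost the average (adjusted p = 0.0506), and a fit without a filter on low counts called SLC30A1 in MM1R (adjusted p = 1.46e-14) and MM1S (7.82e-10). The difference in the RSL3 response of SLC30A1 between MM1R and MM1S was 0.22 (SE 0.651, adjusted p = 1).

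With Fer-1, SLC30A1 was lower than with RSL3 alone in 6 of 6 passages. The log2 fold changes of Fer-1 + RSL3 against RSL3 were -1.29 (SE 0.467) in MM1R and -1.50 (SE 0.47) in MM1S, with adjusted p-values of 0.709 and 0.783 and unadjusted p-values of 0.0137 and 0.00556. In the average over both lines the value was -1.39 (SE 0.331, adjusted p = 0.0937), which DESeq2 called (adjusted p = 0.0195). With all libraries and the passage as a replicate block, the adjusted p-values were 0.255 in MM1R and 0.395 in MM1S. Without replicate 1 of RSL3 in MM1S, the MM1S value of SLC30A1 was -0.35 (adjusted p = 0.998). The average was then -0.83 (adjusted p = 0.107), and it was called in 3 of 18 fits that left out 1 library, those without RSL3 replicate 2 of MM1R or RSL3 replicate 2 or 3 of MM1S. Against untreated cells, Fer-1 + RSL3 gave log2 fold changes of 0.09 (SE 0.46) in MM1R and -0.34 (SE 0.461) in MM1S, neither of which was called. All 3 MM1S libraries with Fer-1 + RSL3 lay below the lowest untreated MM1S library.

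The metallothioneins, the other textbook targets of MTF1, gave a further readout of the same libraries. The summed level of 11 metallothionein genes, of which 6 were tested and 2 were listed at 0 throughout, was 1.56, 3.65 and 4.98 CPM in untreated MM1R and 3.58, 2.66 and 3.71 CPM in untreated MM1S. With RSL3 the sum was 2390, 26.9 and 825 CPM in MM1R and 3384, 161 and 64.2 CPM in MM1S. With Fer-1 + RSL3 it was 24.4, 10.7 and 22.3 CPM in MM1R and 17.0, 19.3 and 10.9 CPM in MM1S. The 3 libraries highest in SLC30A1 were thus also the 3 highest in metallothioneins. The sum was higher with RSL3 in all 6 passages, including the 3 passages in which the ratio for SLC30A1 was 0.925 to 1.16. With Fer-1 + RSL3 the sum still lay above every untreated value. MT2A and MT1X were each above untreated there in 6 of 6 passages, a difference that was not called in either line.

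Of the 6 metallothionein genes tested, MT1E, MT1F, MT1G and MT1H had 0 to 3 counts in every untreated library and passed the filter on low counts through treated libraries, so only MT2A and MT1X are described by a test here. MT2A, a metallothionein of nearly all tissues, rose from a mean of 1.37 to 330.1 CPM in MM1R (log2 fold change 7.92, SE 1.61, adjusted p = 0.0136) and from 1.35 to 393 CPM in MM1S (8.17, SE 1.62, adjusted p = 0.0127). MT1X rose from 1.94 to 438 CPM in MM1R and from 1.83 to 559 CPM in MM1S (adjusted p = 0.0123 and 0.0111). MT1G, with 0 to 0.116 CPM in the untreated libraries, reached 6.28 to 625 CPM with RSL3 in MM1R and 9.55 to 537 CPM in MM1S. Without replicate 1 of RSL3 in MM1S, the MM1S value of MT2A was 4.85 and that of MT1X was 4.78 on the log2 scale. The MT2A call was lost in 4 of 18 fits that left out 1 library in each line and in 0 of 18 in the average. For Fer-1 + RSL3 against RSL3, neither MT2A nor MT1X was called in MM1R or MM1S, with the replicate block or without it, whereas DESeq2 called both in each line. In the average over both lines both were called, at log2 fold changes of -6.15 for MT2A and -5.53 for MT1X. Leaving out 1 library, these averaged calls were lost in 9 of 18 fits for MT2A (adjusted p-values of up to 0.126) and in 10 of 18 for MT1X (up to 0.131). MT1 genes are close paralogs, and reads shared between them may have been split or lost in counting.

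MTF1 itself was not called in any comparison. Its CPM was 44.8, 41.6 and 39.0 in untreated MM1R and 33.7, 43.3 and 45.1 with RSL3. In MM1S it was 37.9, 39.0 and 43.9 in untreated cells and 37.9, 36.6 and 39.6 with RSL3. The groups overlapped in both lines, and the log2 fold changes were -0.04 (SE 0.144) in MM1R and -0.08 (SE 0.144) in MM1S. The libraries with the most SLC30A1 did not stand out in MTF1, at 33.7, 45.1 and 37.9 CPM. With Fer-1 + RSL3, MTF1 was at 39.7, 44.6 and 47.8 CPM in MM1R and at 33.2, 37.5 and 50.2 CPM in MM1S. These are levels of the transcript, and the activity of MTF1 depends on zinc binding, which was not measured.

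HMOX1, which encodes heme oxygenase and responds to oxidative stress, followed another order in the same libraries. It was at 237, 243 and 1404 CPM with RSL3 in MM1R and at 2298, 310.2 and 434 CPM in MM1S, from 9.09 to 25.4 CPM in the untreated libraries. With Fer-1 + RSL3 it was at 685 to 1463 CPM in MM1R and at 975 to 1220 CPM in MM1S. HMOX1 thus remained high in all 6 libraries with Fer-1, whereas the metallothionein sum was at most 24.4 CPM and SLC30A1 at most 303 CPM there. Against untreated cells, Fer-1 + RSL3 gave log2 fold changes of HMOX1 of 5.67 in MM1R (adjusted p = 0.000942) and 6.67 in MM1S (adjusted p = 0.000487).

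**Figure D3:**
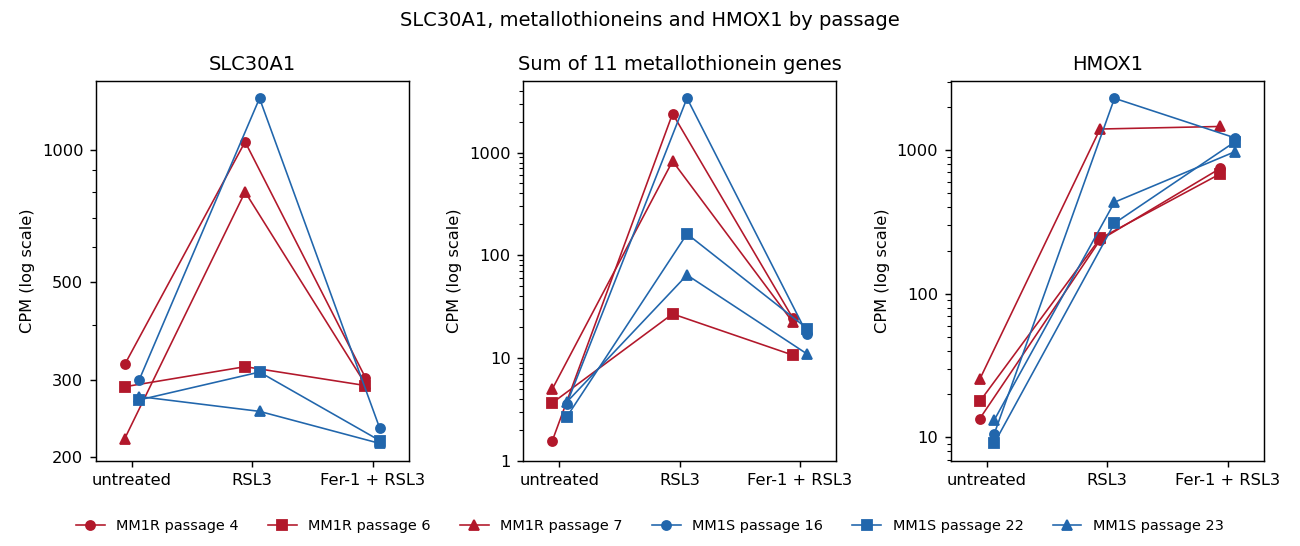
SLC30A1, the sum of 11 metallothionein genes and HMOX1 by passage, in CPM on logarithmic axes. Lines join the treatments of 1 passage. The 3 RSL3 libraries with SLC30A1 above 800 CPM have metallothionein sums of 825 to 3384 CPM. With Fer-1 + RSL3, SLC30A1 is at most 303 CPM and HMOX1 is at 685 to 1463 CPM. The metallothionein sum is then at most 24.4 CPM, which is still above the untreated values of at most 4.98 CPM.

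The exporters of the secretory pathway were not called in any comparison. SLC30A5 had group means between 102 and 113 CPM, and its log2 fold changes with RSL3 were -0.02 (SE 0.11) in MM1R and 0.06 (SE 0.11) in MM1S. SLC30A6 was at 56.1 to 58.3 CPM in untreated MM1R and at 55.0 to 58.7 CPM in untreated MM1S. With RSL3, replicate 1 of MM1S, at 38.4 CPM, lay below the rest of the 18 libraries, while the other RSL3 libraries were at 58.0 to 68.9 CPM. With Fer-1 + RSL3, SLC30A6 was at 67.4, 70.6 and 76.5 CPM in MM1R and at 63.8, 69.6 and 72.8 CPM in MM1S, above the untreated library of the same passage in 6 of 6 passages and with no overlap of the groups. This difference was not called, with log2 fold changes of 0.33 (SE 0.159, adjusted p = 0.212) in MM1R and 0.27 (SE 0.159, adjusted p = 0.40) in MM1S. Without replicate 1 of RSL3 in MM1S, the MM1R value of SLC30A6 was 0.32 and called (adjusted p = 0.028). SLC30A7 ranged from 2.90 to 7.69 CPM over all libraries, and its log2 fold changes with RSL3 were 0.44 (SE 0.24) in MM1R and 0.11 (SE 0.238) in MM1S. The low untreated MM1R replicate 3, at 2.90 CPM, was 50 counts. Neither difference was called (adjusted p = 0.349 and 0.852), on 50 to 147 counts per library.

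SLC30A9, the mitochondrial exporter, rose slightly with RSL3 in the average over both lines. It was at 77.7, 79.6 and 72.2 CPM in untreated MM1R and at 91.5, 99.7 and 89.4 CPM with RSL3, without overlap. In MM1S it was at 77.8, 75.8 and 76.6 CPM untreated and at 81.4, 86.2 and 77.4 CPM with RSL3, which overlapped. It was higher with RSL3 in 6 of 6 passages, by ratios of 1.18 to 1.25 in MM1R and 1.01 to 1.14 in MM1S. The average over both lines was called (log2 fold change 0.19, SE 0.0576, adjusted p = 0.0344). In MM1R alone the SLC30A9 value of 0.29 (SE 0.0814) had an adjusted p of 0.0603, which was 0.0146 with the replicate block and 0.00507 with DESeq2. In MM1S it was 0.09 (SE 0.0814, adjusted p = 0.589), and the difference between the lines was 0.20 (SE 0.115, adjusted p = 1). The averaged call of SLC30A9 was lost in 9 of 18 fits that left out 1 library, with adjusted p-values of up to 0.0872, and without a filter on low counts (adjusted p = 0.424). With Fer-1 + RSL3, SLC30A9 remained at 89.3, 93.9 and 90.0 CPM in MM1R and at 82.4, 77.6 and 79.1 CPM in MM1S. Against untreated MM1R this was a log2 fold change of 0.25 (adjusted p = 0.0629, or 0.0167 with the replicate block).

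Of the importers, SLC39A10 fell with RSL3 in both lines. The gene lies on chromosome 2 (hg19 chr2:196440701-196602426, plus strand). The sequence shown is the 250 bases before the upstream of its RefSeq start sites, at GRCh38.p14 chr2:195656708-195656957 (plus strand), in which the search for the metal response element core found no match, so that no letters are in capitals.
SLC39A10: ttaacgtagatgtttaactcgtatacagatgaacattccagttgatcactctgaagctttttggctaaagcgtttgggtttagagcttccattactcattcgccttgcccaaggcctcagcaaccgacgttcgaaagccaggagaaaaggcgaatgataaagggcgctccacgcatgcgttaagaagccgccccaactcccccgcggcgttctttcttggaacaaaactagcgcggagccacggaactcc
Another RefSeq start site of the gene had 1 match, 34 bases into the transcript. No reading of the regulation of SLC39A10 follows from these letters.

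SLC39A10 was at 37.2, 35.4 and 29.1 CPM in the untreated MM1R replicates 1, 2 and 3, and at 14.9, 21.1 and 15.4 CPM with RSL3. In MM1S it was at 47.8, 42.6 and 44.2 CPM untreated and at 15.4, 19.6 and 25.0 CPM with RSL3. Every RSL3 library lay below every untreated library of either line, and the values rested on 235 to 922 counts. The log2 fold changes were -0.98 (SE 0.215, adjusted p = 0.0207) in MM1R and -1.16 (SE 0.215, adjusted p = 0.00878) in MM1S, and the average was -1.07 (SE 0.152, adjusted p = 0.000307). Within passages, RSL3 over untreated gave ratios of 0.403, 0.599 and 0.531 in MM1R and of 0.325, 0.461 and 0.566 in MM1S. The RSL3 response of SLC39A10 differed between the lines by 0.18 on the log2 scale (SE 0.301, adjusted p = 1).

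SLC39A10 stayed below its untreated level when Fer-1 was given before RSL3. With Fer-1 + RSL3 it was at 15.2, 27.7 and 16.4 CPM in MM1R and at 19.3, 15.7 and 16.8 CPM in MM1S, again below every untreated library. The highest of these, 27.7 CPM, was replicate 2 of MM1R, the library that stood apart in NR3C1. Fer-1 + RSL3 against RSL3 gave log2 fold changes of 0.21 (SE 0.216, adjusted p = 0.925) in MM1R and -0.21 (SE 0.216, adjusted p = 0.944) in MM1S. Averaged over both lines the difference was -0.00 (SE 0.152, adjusted p = 0.996). Against untreated cells, which are the same control libraries as for RSL3, Fer-1 + RSL3 gave -0.78 (SE 0.214, adjusted p = 0.0315) in MM1R and -1.38 (SE 0.216, adjusted p = 0.0017) in MM1S. Without replicate 2 of Fer-1 + RSL3 the MM1R value of SLC39A10 was -1.10 (adjusted p = 0.00637).

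The calls of SLC39A10 depended in part on which libraries entered the fit. With all libraries and the passage as a replicate block, the RSL3 adjusted p-values were 0.00382 in MM1R and 0.00178 in MM1S. The fits that follow had no term for the passage. Leaving out 1 library at a time, the RSL3 call was kept in 18 of 18 fits in MM1S, with adjusted p-values of up to 0.0488. In MM1R it was lost in 4 of 18 fits, those without untreated replicate 1 or 2 or RSL3 replicate 1 or 3, with adjusted p-values of up to 0.109 and log2 fold changes between -1.16 and -0.89. In a fit of the 2 MM1S groups alone, the RSL3 call of SLC39A10 was also lost (adjusted p = 0.145). The call for Fer-1 + RSL3 against untreated MM1R was lost in 4 of 18 fits, those without untreated replicate 1 or 2 or Fer-1 + RSL3 replicate 1 or 3 (adjusted p-values of up to 0.126), and the MM1S call was kept in 18 of 18 fits.

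The other importers among the members were not called in any comparison. SLC39A6, which can pair with SLC39A10 at the plasma membrane, had group means of 149.9 to 162 CPM, and its log2 fold changes with RSL3 were 0.04 (SE 0.122) in MM1R and -0.06 (SE 0.122) in MM1S. SLC39A8 had group means of 192 to 226 CPM, with log2 fold changes of -0.01 (SE 0.0982) and -0.06 (SE 0.0982). With Fer-1 + RSL3, SLC39A8 was below untreated in 6 of 6 passages, by -0.08 in MM1R and -0.17 in MM1S on the log2 scale (adjusted p = 0.646 and 0.387). Its groups overlapped in MM1R, whereas the MM1S libraries with Fer-1 + RSL3, at 187 to 201.5 CPM, lay below the untreated ones, at 207 to 223 CPM.

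In the comparison of Fer-1 + RSL3 with RSL3, 0 of 9 members were called in MM1R, in MM1S or in the average over both lines. The shares of all genes called were 0%, 0% and 0.119% (17 of 14281). At an unadjusted p under 0.05 the count was 1 member in each of the 3 comparisons, SLC30A1 each time, and DESeq2 called 0, 0 and 1. The replicate block called 0 members in each, beside 25, 8 and 338 of all genes. Against untreated cells, Fer-1 + RSL3 gave 1 of 9 members in MM1R and 1 of 9 in MM1S, SLC39A10 in both, where 9.22% and 4.61% of all genes were called. The replicate block and DESeq2 each added SLC30A9 in MM1R, and the block called 3173 and 2093 of all genes in these 2 comparisons. For the difference in RSL3 response between the lines, 0 of 9 members were called (0 at an unadjusted p under 0.05 and 0 with DESeq2), with 0% of all genes called.

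**Figure D4:**
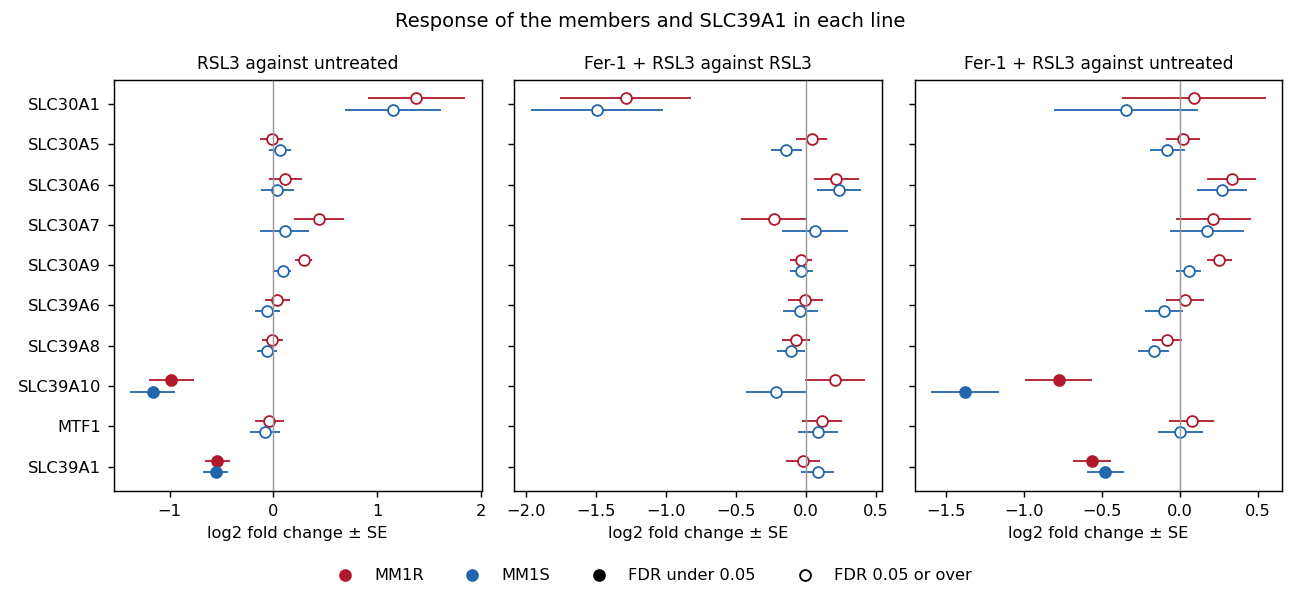
Log2 fold changes with their standard errors for 9 members and SLC39A1 in each line, for RSL3 against untreated, Fer-1 + RSL3 against RSL3 and Fer-1 + RSL3 against untreated. Filled points have an adjusted p below 0.05 and open points do not. SLC39A10 and SLC39A1 are filled for both comparisons with untreated cells and near 0 for Fer-1 + RSL3 against RSL3, and SLC30A1 has the widest errors.

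Of the 15 other genes of the SLC30 and SLC39 families, 9 were tested and 2 were listed at 0 in all libraries. RSL3 lowered 1 of the 9, SLC39A1, in MM1R, in MM1S and in the average, and raised 0. SLC39A1 is a widely expressed importer of the plasma membrane. Its CPM was 68.2, 64.7 and 65.2 in untreated MM1R and 44.1, 48.7 and 43.3 with RSL3. In MM1S it was 53.3, 68.1 and 58.7 untreated and 32.7, 45.2 and 44.3 with RSL3. The groups did not overlap in either line, and SLC39A1 was lower in 6 of 6 passages. Its log2 fold changes were -0.54 (SE 0.12, adjusted p = 0.0226) and -0.56 (SE 0.121, adjusted p = 0.0189). With the passage as a replicate block these adjusted p-values were 0.00228 and 0.00207. As with SLC39A10, the libraries with Fer-1 + RSL3 stayed near those with RSL3, at means of 44.6 CPM in MM1R and 43.1 CPM in MM1S, with log2 fold changes of -0.02 (SE 0.121) and 0.08 (SE 0.121) against RSL3. Against untreated cells they were -0.56 (adjusted p = 0.00842) and -0.48 (adjusted p = 0.0311). Leaving out 1 library, the RSL3 call of SLC39A1 was lost in 5 of 18 fits in MM1R (adjusted p-values of up to 0.101) and in 3 of 18 in MM1S (up to 0.0874), and in 0 of 18 in the average. For Fer-1 + RSL3 against untreated, the SLC39A1 call was kept in 18 of 18 fits in MM1R and lost in 5 of 18 in MM1S, where the log2 fold change reached -0.37 (adjusted p = 0.156) without untreated replicate 2. SLC30A4, a zinc transporter of endosomes, was called with the replicate block alone, each time with higher values in the treated cells. These calls were in the RSL3 average (adjusted p = 0.0188 against 0.238 without the block) and for Fer-1 + RSL3 against untreated in MM1R (0.0114 against 0.23) and MM1S (0.0376 against 0.411).

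The genes with levels most like those of the called members over the 18 libraries were taken by Pearson's correlation of log2 CPM, given here as a description since all libraries share treatments and passages. For SLC39A10 they were FRMD6 (r = 0.952), DDX17 (0.932), ANKRD27 (0.931), NFE2L3 (0.93) and OTULINL (0.922). For SLC30A1 they were the metallothionein gene MT1E (0.962), RELL1 (0.961), BCL2L11 (0.93), PNRC1 (0.921) and ZFP36 (0.91). MT1E had 0 counts in every untreated library and at most 1 count in any library with Fer-1 + RSL3. Its correlation therefore rested on the RSL3 libraries, with 0 to 154 counts in MM1R and 1 to 171 in MM1S. For SLC30A9 they were XIAP (0.89), ITPR2 (0.861), IGF2R (0.832), FAM8A1 (0.822) and KIF9-AS1 (0.807). By Spearman's correlation, 1 of the 5 genes was shared for SLC39A10 (OTULINL), 0 for SLC30A1 and 1 for SLC30A9 (IGF2R).

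Some members share sequence with other annotated genes. SLC30A5 overlaps an antisense gene by 532 exonic bases and SLC39A6 a gene on the same strand by 227, and strand use in the counting is not given in the sources used here, so reads in these overlaps cannot be assigned with certainty. SLC30A6 has 1 pseudogene named after it, SLC30A6P1, which could take or give reads.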

How the data were processed

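Total RNA of 18 cultures was sequenced on the BGI platform. The authors aligned reads with STAR (2.7.3a) to hg19 after quality control with FastQC (0.11.5). The counting tool, its strand setting and its gene annotation are not given in the sources used here. The deposited counts are raw reads per gene symbol (43735 rows). The authors also deposited a signal table of counts divided by DESeq2 size factors (29553 rows), used here only as an alternative for levels. No per-sample column was left unused.

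Counts were tested with edgeR (4.0.16, R 4.3.3) by glmQLFit and glmQLFTest with TMM scaling, after filterByExpr with a minimum count of 10, in a model of 6 group means over 18 libraries with 12 residual degrees of freedom. Genes were called at a Benjamini-Hochberg adjusted p below 0.05 over 14281 genes, with a log2 fold change over 1 in size required for the stricter count. The scripts were tested on simulated data. The prior count of log2 CPM was 2. Lengths are exonic lengths of the GENCODE canonical transcript on hg19, and promoters are from RefSeq on GRCh38.p14.

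The labels give the passage of each library. Libraries of 1 passage are taken as paired in the ratios within passages and in the replicate block. The main fit had no term for the passage, so its standard errors and p-values do not use the pairing. Deviations from the group mean had a median correlation within passages of 0.25 in MM1R (0.0338 to 0.516) and 0.416 in MM1S (0.216 to 0.681), each over 9 pairs. The fit with the passage as a replicate block (8 residual degrees of freedom) is given where it changes a call. It is also given for SLC30A1 and for the RSL3 calls of SLC39A10 and SLC39A1 in each line. Replicates differed by more than counting noise in every group, with chi-square values per degree of freedom of 8.27 to 172. The values of 148 and 172 belonged to the pairs with replicate 1 of RSL3 in MM1S, whereas replicates 2 and 3 of that group gave 8.27. All pairs without that library were at 52.3 or less.

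The members, and the lists of family genes, metallothioneins and cell markers, were chosen with earlier results of these data known. All members are named. Other family genes are named where called in a comparison, and SLC30A4 was added after its blocked value was seen. For metallothioneins the 3 with the highest mean CPM are named, and MT1E, MT1F and MT1H after their counts were seen. MT1B and MT4 are named for their promoters. For members called in the RSL3 average, the 5 genes with the highest correlation are named. Alternatives were DESeq2 (1.42.0), other scalings and filters, the replicate block, fits of the compared groups alone, each library left out and the deposited normalized values.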

Additional observations from a re-analysis of the deposited data

How the results depend on the processing

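Across 2241 alternative values of the members' log2 fold changes, 110 had the opposite sign to the reported value, and 0 of the 175 values of called members did. Scaling moved the median of all genes by at most 0.032 on the log2 scale. The count of members called for RSL3 in MM1R was 2 with DESeq2, without a filter on low counts, with a minimum count of 50 and with the replicate block, against 1 as reported. In MM1S it was 2 without a filter and 0 in a fit of the compared groups alone, and in the average over both lines it was 1 in the fit of those groups alone, against 3. Without a filter, Fer-1 + RSL3 against RSL3 gave 1 member in MM1R, 1 in MM1S and 1 in the average, and DESeq2 gave 1 in the average, against 0. For Fer-1 + RSL3 against untreated MM1R the count was 2 with DESeq2, a minimum count of 50 and the replicate block, against 1. Leaving out 1 library at a time, the counts ranged from 0 to 3 (RSL3, MM1R), 1 to 2 (RSL3, MM1S), 1 to 3 (RSL3, average), 0 to 0 (Fer-1 + RSL3 against RSL3, either line), 0 to 1 (its average), 0 to 2 (Fer-1 + RSL3 against untreated, MM1R), 1 to 1 (the same, MM1S), and 0 to 0 for the response difference and for untreated cells.

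The number of all genes called moved by over 1.5 times under several settings. With DESeq2 it was 925 (RSL3, MM1R), 1015 (RSL3, MM1S), 27, 7 and 217 (Fer-1 + RSL3 against RSL3 in MM1R, MM1S and the average) and 1116 (Fer-1 + RSL3 against untreated MM1S). Without a filter the same 6 counts were 1014, 1214, 271, 308, 571 and 1085, and 30 genes were called for the response difference. Fits of the compared groups alone gave 3 for RSL3 in MM1S and 0 for the average of Fer-1 + RSL3 against RSL3. Leaving out 1 library, the RSL3 counts ranged from 113 to 1185 in MM1R and from 84 to 943 in MM1S. Beyond the calls of SLC30A9 and SLC30A4 given above, the replicate block changed no call of a member or another SLC30 or SLC39 gene in the comparisons of treatments. It added calls among the metallothioneins and the cell type markers, and the untreated lines have no blocked value, since they share no passage. The causes of these changes were not tested.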
